A study of Mus musculus with 6 samples.

Results

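The genes of heat shock proteins and of their J-protein co-chaperones were followed in mouse testis, in libraries labelled WT and libraries labelled Ccdc117ko. Members were taken by Symbol: every gene starting with Hspa, Hspb, Hspd, Hspe, Hsph, Hsp90, Dnaja, Dnajb or Dnajc, with the 6 Symbols carrying the -ps suffix of pseudogenes left out. This gave 75 of the 36652 genes in the table, 30 with an Hsp prefix and 45 with a Dnaj prefix. Testis RNA of 8-week-old mice was sequenced in 3 libraries of each genotype, WT and Ccdc117ko, with no treatment named for either. The labels describe neither the strain nor the allele, and leave unsaid whether each library is a mouse of its own, so the p-values reflect only how far these libraries vary, which may be technical. A group of 10 members was set apart as testis members, genes known for expression in male germ cells: Hspa2, Hspa1l, Hspa4l, Hspb9, Dnajb3, Dnajb7, Dnajb8, Dnajb13, Dnajc5b and Dnajc5g.

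Proteins of the HSP70 family bind unfolded stretches of other proteins and release them in a cycle driven by ATP. J proteins, encoded by the Dnaj genes, deliver clients to HSP70 and start its ATP hydrolysis, and nucleotide exchange factors end the cycle. HSP90 proteins finish the folding of selected clients, small heat shock proteins hold aggregating proteins, and each cell compartment has its own set. Male germ cells carry several family members of their own: Hspa2 is needed by spermatocytes to complete meiosis, and further members appear in spermatids.

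Whole reads recovered from the table numbered 35791616 to 43461692 per library. Ccdc117 itself was read in 3657, 3826 and 3931 normalized counts in WT and in 3478, 3772 and 3908 in Ccdc117ko (log2 change -0.03, SE 0.05, limma adjusted p = 0.714). A total over the gene does not show the loss of a part of it, so the genotype labels could not be checked. WT and Ccdc117ko below stand for the libraries so labelled, and higher and lower for Ccdc117ko relative to WT. Defining markers of germ cells, Sertoli cells and Leydig cells were read in every library, as the tissue label states. In whole testis, fewer cells of a type and less RNA per cell cannot be told apart.

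Chaperone genes moved in both directions and by small amounts. Of the 75 members, 74 had the mean of at least 10 normalized counts needed for the test, and 15 of these were called at a limma adjusted p under 0.05. This is 20.3% of the tested members, where 16.6% of all 22878 tested genes were called. The 8 of 74 members called higher stand beside 1911 of all 22878 genes (8.35%). The 7 of 74 called lower stand beside 1887 of all 22878 genes (8.25%). Rises of called members lay between 10.5% and 29.7%, and the called members on the other side fell by 9.76% to 20.7%. The values of the genotypes did not overlap for 33 of the 74 members, and for 7896 of all 22878 tested genes (34.5%). The share was larger among the members, a difference that was not tested. The median log2 change was 0.01 over the 74 members and -0.01 over all genes. Hspb3, a small heat shock protein of muscle, was not tested: it had no read in 5 libraries and 2 reads in Ccdc117ko replicate 1.

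The called members were Dnajb13, Dnajc5b, Dnajc15, Dnajb7, Dnajc18, Dnajc24, Dnajc9 and Hspb6 on the higher side, and Dnajc10, Hspa5, Hsp90b1, Dnajc28, Hspa1l, Dnajc13 and Dnajc27 on the lower side. Among the 10 testis members 3 were called higher and 1 lower. The log2 changes of these 10 had a median of 0.06 and 9 were above 0. Among the 64 other tested members 5 were called higher and 6 lower, and their log2 changes had a median of -0.02 with 29 above 0. These medians moved toward each other when each library was corrected for the length and GC content of transcripts: 0.04 for the testis members, with 6 of 10 above 0, and 0.02 for the other members, with 34 of 64 above 0. Dnaj genes made up 11 of the 15 calls and 45 of the 75 members. Calls covered 24.4% of the 45 Dnaj genes and 13.8% of the 29 tested Hsp genes, where 16.6% of all genes were called. The number of calls depended on single libraries: with each library left out in turn, 4 to 6 members were called higher and 1 to 9 lower. Leaving out Ccdc117ko replicate 2 gave the fewest, 4 higher and 1 lower. Dnajb13, Dnajc5b, Dnajc15, Dnajb7 and Dnajc10 were called in each of these 6 fits. A lower filter of 0.5 normalized counts brought in genes with few reads. Of the 74 members 6 were then called, beside 2228 of all 32783 tested genes (6.8%).

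**Figure D1:**
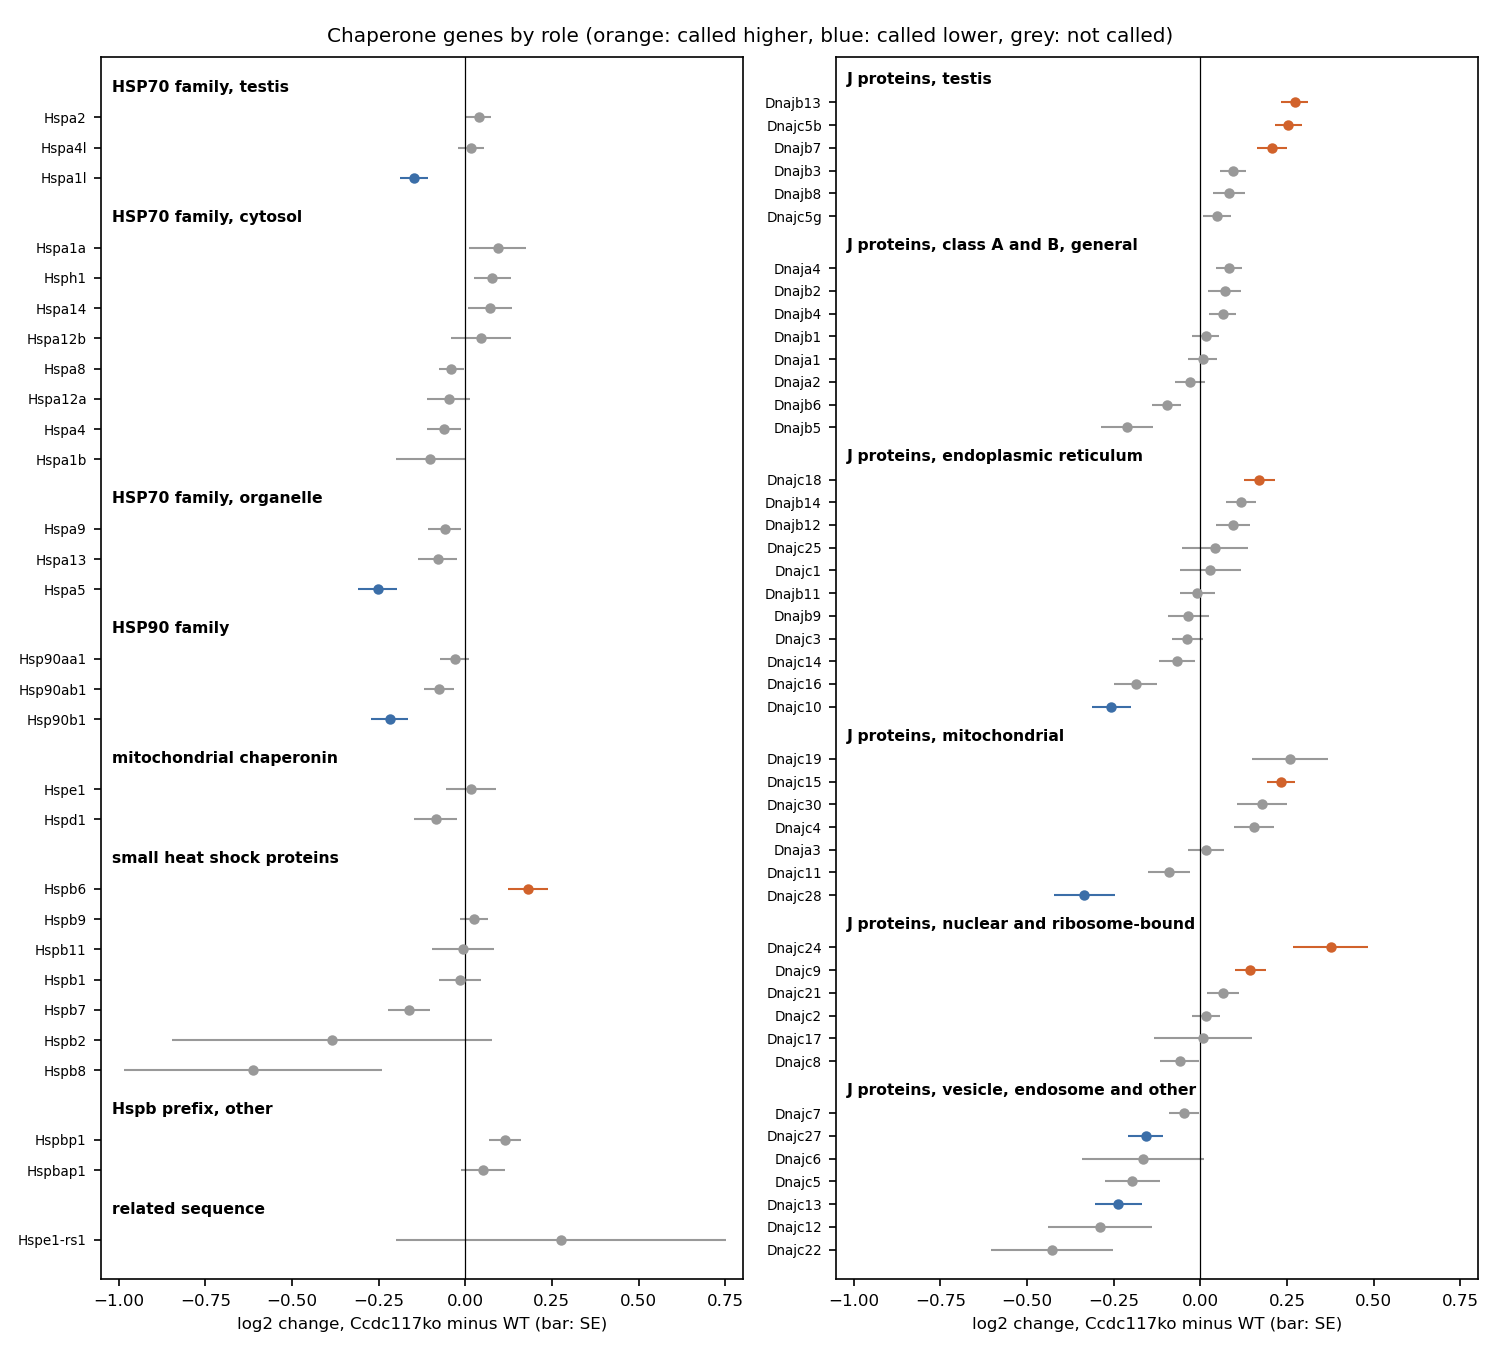
Log2 change of the 74 tested members (x axis, Ccdc117ko minus WT, points with SE bars) grouped by role, with called members in orange (higher) and blue (lower) and the rest in grey. The 8 orange and 7 blue points are spread over 9 role groups, and the widest bars belong to genes with few reads such as Hspb8 and Hspb2.

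The HSP70 genes of the testis differed in how they moved: Hspa1l was lower, while Hspa2 and Hspa4l were not called. Hspa2 (chr12:76404176-76406938, plus strand, mm10), the HSP70 of meiotic spermatocytes, is encoded in a single exon. Hspa2 had 44948, 47825 and 46825 normalized counts in WT and 47889, 47542 and 47912 in Ccdc117ko. The Ccdc117ko values lay within 1% of each other, and the second of them was below WT replicate 2, so the groups overlapped (log2 change 0.04, SE 0.04, limma adjusted p = 0.501).

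Hspa1l (chr17:34972703-34979285, plus strand), the HSP70 of spermatids, had 32727, 32780 and 34271 normalized counts in WT and 31509, 29529 and 29034 in Ccdc117ko. Every Ccdc117ko library was below every WT library. Its log2 change was -0.15 (SE 0.04, limma adjusted p = 0.0254). Hspa1l was no longer called without WT replicate 3 (adjusted p = 0.104), Ccdc117ko replicate 2 (0.116) or Ccdc117ko replicate 3 (0.0953), and with a filter of 0.5 normalized counts in place of 10 (0.0675). Hspa1l shares 9.57% of the 50-base words of its longest transcript with Hspa1a and Hspa1b, the neighbouring stress-induced genes, so reads could be split among them. Hspa4l, an HSP110-type exchange factor for HSP70, had 33303, 35037 and 34249 in WT and 33735, 34453 and 35588 in Ccdc117ko, and the groups overlapped. Its log2 change of 0.02 (SE 0.04, limma adjusted p = 0.805) became 0.13, called higher at an adjusted p of 0.0297, with the length and GC correction.

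Per kilobase of the longest transcript, testis members and general members were mixed in their order, with 6 testis members among the first 7. In the WT libraries Hspb9 stood first at 29597 ± 1197 normalized counts per kilobase (SD, n = 3). Dnajb3 followed at 25941 ± 597, Hspa2 at 18421 ± 578 and Hsp90aa1 at 17553 ± 704. Hspa2 and Hsp90aa1 differed by less than the sum of their SDs. Dnajb8 at 14546 ± 605 and Hspa1l at 13454 ± 355 differed by slightly more than theirs. Dnajc5b came next at 6830 ± 152, within the SD of the endoplasmic reticulum chaperone gene Hsp90b1 at 6763 ± 439. The other 4 testis members ranked lower, Dnajb7 at 13 (3808 ± 43.6), Hspa4l at 14 (3608 ± 91.6), Dnajb13 at 18 (3344 ± 86.2) and Dnajc5g at 21 (3002 ± 32.8). Above them stood the general genes Hspa5, Dnajb6, Dnajb1 and Hsp90ab1. A single exon was found in 5 of the 10 testis members (Hspa2, Hspb9, Dnajb3, Dnajb7 and Dnajb8) and in 6 of the 65 others, among them Hspa1a and Hspa1b.

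The share of Hspa2 within the HSP70 family was slightly higher in Ccdc117ko. Hspa2 supplied 35.6%, 36.3% and 35.0% of the per-kilobase counts of the 14 HSP70 genes in WT and 37.8%, 38.5% and 38.1% in Ccdc117ko. Hspa1l supplied 26.1% ± 0.546 in WT and 24.5% ± 0.898 in Ccdc117ko, and Hspa5 11.4% ± 0.652 and 9.98% ± 0.356 (SD, n = 3 each). The shares of all 3 genes did not overlap between genotypes, although the level of Hspa2 itself was not called. For comparison, the levels of 34.5% of all tested genes did not overlap. Shares of a family add up to a whole, so they are not independent: lower shares of Hspa1l and Hspa5 go with higher shares of others. Hspa8 held 6.07% ± 0.265 in WT and 6.14% ± 0.0207 in Ccdc117ko, with overlapping values. Hspa2, Hspa1l and Hspa4l together made up 68.7% ± 0.565 of the family in WT and 69.9% ± 0.629 in Ccdc117ko. The stress-induced pair Hspa1a and Hspa1b held 0.480% ± 0.0353 and 0.506% ± 0.0331, with overlapping values. An exact two-sided permutation test on 3 against 3 libraries cannot give a p below 0.1, so no share was tested further.

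**Figure D2:**
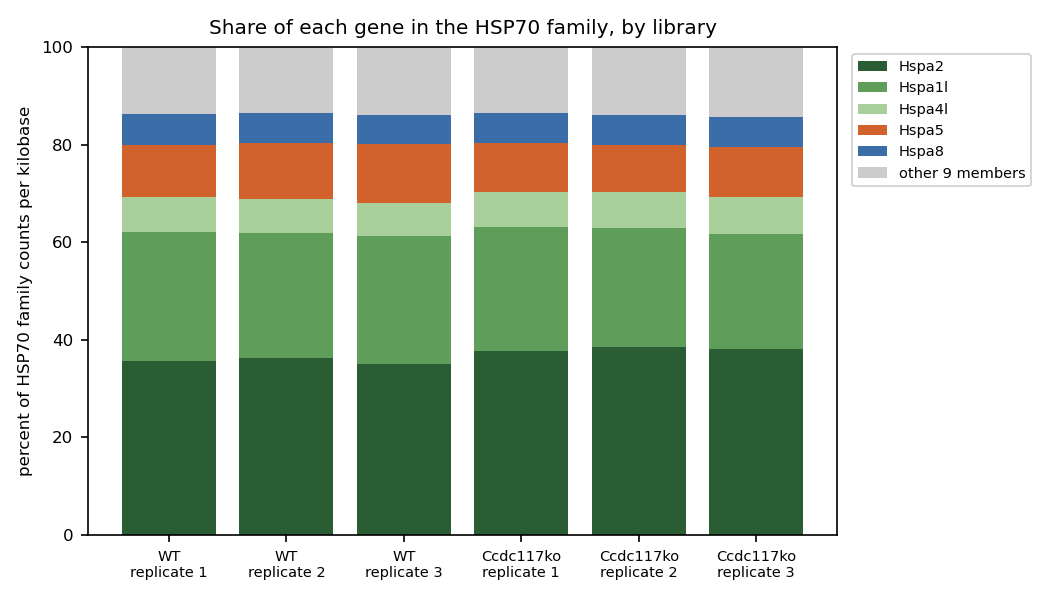
Percent of the per-kilobase counts of the 14 HSP70 genes (y axis) held by each gene in each of the 6 libraries (bars). Hspa2 took 35.0% to 36.3% in the WT libraries and 37.8% to 38.5% in those labelled Ccdc117ko, and the 3 green testis genes together took over 68% in every library.

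Of the 6 J proteins of the testis 3 were called higher and none lower, where 8.35% of all genes were called higher. All 6 log2 changes were above 0 (median 0.15). With the length and GC correction 2 were called higher, 4 were above 0 and the median was 0.05, with Dnajb8 (-0.01) and Dnajc5g (-0.02) below 0. Dnajb13 (chr7:100501716-100514960, minus strand) encodes a component of the radial spokes of the sperm flagellum. It had 8873, 8703 and 8430 normalized counts in WT and 10519, 10255 and 10621 in Ccdc117ko. Every Ccdc117ko value exceeded every WT value by more than the spread within either genotype, a rise of 20.7% (log2 change 0.27, SE 0.04, limma adjusted p = 0.0013).

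Dnajc5b (chr3:19508595-19610862, plus strand) encodes a cysteine-string protein, a J protein of vesicle membranes. It had 7199, 7113 and 6895 in WT and 8341, 8595 and 8358 in Ccdc117ko, again without overlap (log2 change 0.25, SE 0.04, limma adjusted p = 0.00189). Dnajb7 (chr15:81406926-81408299, minus strand), a single-exon J-protein gene, had 5175, 5226 and 5295 in WT and 6051, 6250 and 5824 in Ccdc117ko. The groups were well apart (log2 change 0.21, SE 0.04, limma adjusted p = 0.00718), but with the length and GC correction Dnajb7 changed by 0.10 and was not called (adjusted p = 0.129). The same correction took the log2 change of Dnajc5b from 0.25 to 0.14 and left it called (adjusted p = 0.026). Of Dnajc5b, 16.9% of the 50-base words are shared with Gm14868. Exons of Dnajb13 overlap Ucp2 and those of Dnajc5b overlap 1700064H15Rik on the opposite strand. The sources used here do not say whether reads were counted by strand.

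The other 3 testis J-protein genes and Hspb9 were not called. Dnajb3, whose protein lies over the acrosome and at the centrosome of spermatids, had 26581, 27814 and 27398 normalized counts in WT and 30091, 28833 and 28360 in Ccdc117ko. These values did not overlap, and the log2 change was 0.09 (SE 0.04, limma adjusted p = 0.109). Dnajb8, which suppresses protein aggregation, had 14557, 14907 and 13739 in WT and 15694, 15660 and 14370 in Ccdc117ko, overlapping through the third Ccdc117ko library (0.08, SE 0.05, limma adjusted p = 0.259). Dnajc5g, a second cysteine-string protein of testis, had 4640, 4716 and 4739 in WT and 4841, 4866 and 4865 in Ccdc117ko. The Dnajc5g values did not overlap, yet differed by only 3.39% (log2 change 0.05, SE 0.04, limma adjusted p = 0.464). Hspb9, the small heat shock protein of testis, had 20676, 22404 and 21383 in WT and 21880, 22336 and 21318 in Ccdc117ko, with full overlap (0.02, SE 0.04, limma adjusted p = 0.728). Together the 6 testis J-protein genes supplied 54.8% ± 0.734 of the per-kilobase counts of all 45 J-protein genes in WT and 56.8% ± 0.650 in Ccdc117ko (SD, n = 3 each).

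**Figure D3:**
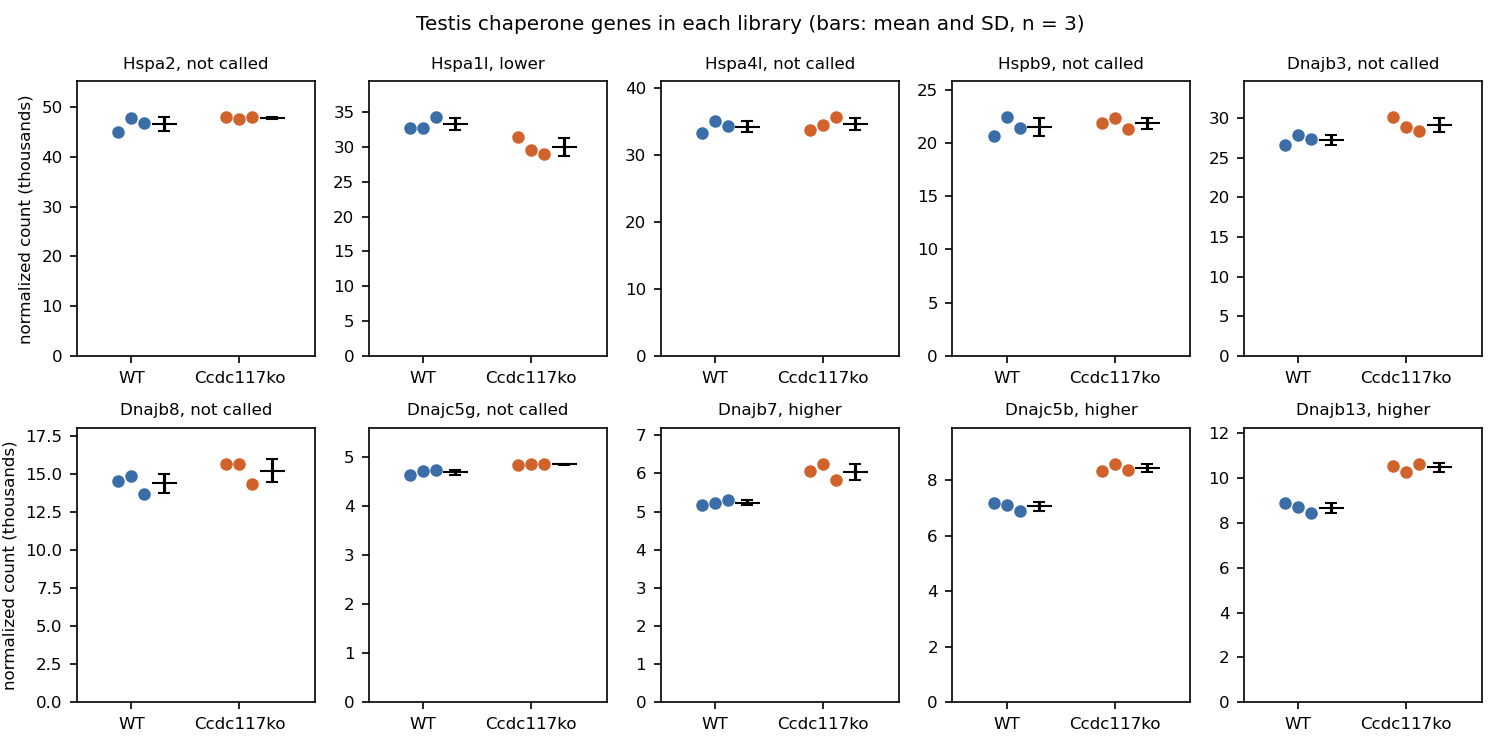
Normalized counts (y axis from 0, scaled as its label says) of the 10 testis members in each library, with WT in blue, Ccdc117ko in orange and black marks for the mean and SD of 3 libraries. Dnajb13, Dnajc5b and Dnajb7 lie higher in all 3 libraries labelled Ccdc117ko and Hspa1l lower, while Hspa2, Hspa4l and Hspb9 overlap.

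Markers of testis cell types moved with genotype beside these genes. All 12 round spermatid markers were called higher (median log2 change 0.43), and 11 or 12 of them with any 1 library left out. Their summed level was 69405 to 77194 normalized counts in WT and 87658 to 91502 in Ccdc117ko. Of 12 elongating spermatid markers 3 were called higher and 1 lower (5 higher without WT replicate 1), and of 10 pachytene spermatocyte markers 2 higher and 2 lower. The summed pachytene level was 170936 to 186657 in WT and 189066 to 189699 in Ccdc117ko. Most of the 10 pachytene markers did not follow this sum: their median log2 change was -0.05, with 4 above 0. Of 13 Sertoli cell markers 7 were called lower and none higher (summed 58376 to 59584 in WT, 52849 to 54496 in Ccdc117ko), and 3 to 7 were called lower with 1 library left out. The fewest Sertoli calls came without Ccdc117ko replicate 2. Of 10 spermatogonial markers 5 were called lower (10004 to 10799 in WT, 8051 to 8625 in Ccdc117ko), falling to 3 without WT replicate 2, WT replicate 3 or any 1 Ccdc117ko library. Leydig cell markers moved both ways, 5 of 10 higher and 3 lower, with log2 changes from -0.90 for Hsd3b1 to 1.23 for Star. Their sum was 69856 to 80571 in WT and 82191 to 95315 in Ccdc117ko, and 1 was called lower without WT replicate 3. Of 8 macrophage markers 3 were called lower (3331 to 3733 in WT, 2825 to 3058 in Ccdc117ko). Of 7 endothelial and peritubular markers 2 were called lower (5618 to 5737 in WT, 4901 to 5503 in Ccdc117ko), and none without WT replicate 3, Ccdc117ko replicate 2 or Ccdc117ko replicate 3. No marker of these lists was at 0 in any library. The part of cell type shares in the changes of the chaperone genes was not tested.

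Of the 7 lower members, 3 encode chaperones of the endoplasmic reticulum lumen. By role, 1 of 3 organelle HSP70 genes, 1 of 3 HSP90 genes and 1 of 11 J proteins of the compartment were called lower. Of all genes 8.25% were called lower, and Dnajc3, Dnajb9 and Dnajb11 of the same compartment were not called. Hspa5 encodes BiP, the HSP70 of the lumen, Hsp90b1 encodes GRP94, its HSP90, and Dnajc10 encodes ERdj5, a J protein that reduces disulphide bonds. The first 2 are textbook targets of the unfolded protein response, whose factors bind the ER stress response element, CCAAT and CCACG separated by 9 bases. That spaced pair, searched on both strands in RefSeq promoter windows (250 bases before to 50 after a start, GRCm38.p6), was present in 39 of 32851 windows, 0.119%. Of the 60 members with a window, 3 held it: Hspa5, Hsp90b1 (at 2 places) and Dnajc3. The sites are printed 5′ to 3′ with the letters that the motif fixes in capitals, since they set these 3 members apart in sequence from the other 57. The Hspa5 site is at chr2:34772020-34772049 (plus strand) and the Dnajc3 site at chr14:118937822-118937851 (plus strand). The Hsp90b1 sites are at chr10:86705632-86705661 (minus strand, as the gene) and chr10:86705527-86705556 (printed from the plus strand, opposite to the gene).
Hspa5: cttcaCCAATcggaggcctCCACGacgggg
Hsp90b1 site 1: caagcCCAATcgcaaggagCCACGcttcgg
Hsp90b1 site 2: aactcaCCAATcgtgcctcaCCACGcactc
Dnajc3: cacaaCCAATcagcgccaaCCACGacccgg
Both Hsp90b1 sites fall in 1 stretch of 150 bases upstream of the gene, chr10:86705510-86705659, printed from the minus strand as the gene reads, where the second element appears in its reverse form.
Hsp90b1 upstream: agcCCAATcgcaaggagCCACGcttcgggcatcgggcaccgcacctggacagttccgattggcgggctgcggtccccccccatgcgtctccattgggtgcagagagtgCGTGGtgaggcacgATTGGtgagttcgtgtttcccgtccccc

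Not all members with this element were called. Hspa5 (chr2:34771970-34777547, plus strand) had 19745, 22009 and 23437 normalized counts in WT and 18529, 17232 and 18841 in Ccdc117ko. The groups did not overlap, though WT replicate 1 was much nearer to the Ccdc117ko libraries than WT replicate 3 was. Hspa5 fell by 16.1% (log2 change -0.25, SE 0.06, limma adjusted p = 0.0107). Its call was lost without Ccdc117ko replicate 2 (adjusted p = 0.0635) and with the filter of 0.5 (0.0586).

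Hsp90b1 (chr10:86690209-86705509, minus strand) had 20244, 22103 and 23022 in WT and 18188, 17992 and 20030 in Ccdc117ko. WT replicate 1 and Ccdc117ko replicate 3 nearly met, and the groups did not overlap (log2 change -0.22, SE 0.05, limma adjusted p = 0.016). Hsp90b1 lost its call without WT replicate 2 (adjusted p = 0.055), WT replicate 3 (0.0696), Ccdc117ko replicate 1 (0.0575) or Ccdc117ko replicate 2 (0.0839), and with the filter of 0.5 (0.0692). Exons of Hsp90b1 overlap Gm15344 and Gm25745 on the same strand. Dnajc3, whose protein binds misfolded clients for BiP, was not called (log2 change -0.04, limma adjusted p = 0.626), although its values did not overlap between genotypes. Over all genes, 37 Symbols carried the element and 28 were tested. Of these 2 were called higher, 4 lower and 22 not called, with a median log2 change of -0.05. Among all tested genes 8.35% were called higher and 8.25% lower. The 4 lower genes include Hspa5 and Hsp90b1 themselves. The lectin chaperone genes Calr (-0.04) and Canx (-0.11) and the disulphide isomerase gene Pdia6 (-0.10), which carry it, were not called, and Creld2 was higher (0.21). The motif was chosen after the values had been seen, and a match is a description of letters, not evidence of binding.

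Dnajc10 (chr2:80315466-80354043, plus strand) carried no such match and had 2864, 3201 and 3017 normalized counts in WT and 2503, 2436 and 2658 in Ccdc117ko. All 3 Ccdc117ko libraries were lower (log2 change -0.26, SE 0.06, limma adjusted p = 0.00862). The only other called J protein of the endoplasmic reticulum moved up. Dnajc18, a J protein anchored in the membrane of that compartment, had 4804, 4479 and 4556 in WT and 5047, 5218 and 5304 in Ccdc117ko, without overlap (0.17, SE 0.05, limma adjusted p = 0.0229). Dnajc18 lost its call without WT replicate 2 (adjusted p = 0.0799), WT replicate 3 (0.0778), Ccdc117ko replicate 2 (0.0873) or Ccdc117ko replicate 3 (0.0794), while the length and GC correction raised its log2 change to 0.28 (0.00157). The other 9 J proteins of the compartment were not called. They include Dnajb9, which had 3487, 4025 and 3962 in WT and 3745, 3849 and 3592 in Ccdc117ko (-0.03, SE 0.06, limma adjusted p = 0.735). Dnajb11, a J protein bound to BiP clients, had 3226, 3344 and 3609 in WT and 3387, 3293 and 3426 in Ccdc117ko (-0.01, SE 0.05, limma adjusted p = 0.929). Both genes overlapped between genotypes, although they serve the same HSP70 as Dnajc10.

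The exchange factors of BiP moved in opposite directions. Hyou1, an exchange factor and chaperone of the HSP110 type, had 8536, 8487 and 9147 normalized counts in WT and 6711, 5498 and 5534 in Ccdc117ko. The gap between the genotypes was wider than the spread within either, and Ccdc117ko replicate 1 was the highest of its group (log2 change -0.57, SE 0.07, limma adjusted p = 0.00054). Hyou1 was called in each fit with 1 library left out. Sil1, the other exchange factor of BiP, had 5694, 5671 and 5855 in WT and 6220, 6333 and 6286 in Ccdc117ko (0.13, SE 0.04, limma adjusted p = 0.0426), and was named after its values had been seen. Sil1 lost its call with any 1 library left out, at adjusted p-values between 0.056 and 0.147, and with the length and GC correction (0.12).

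**Figure D4:**
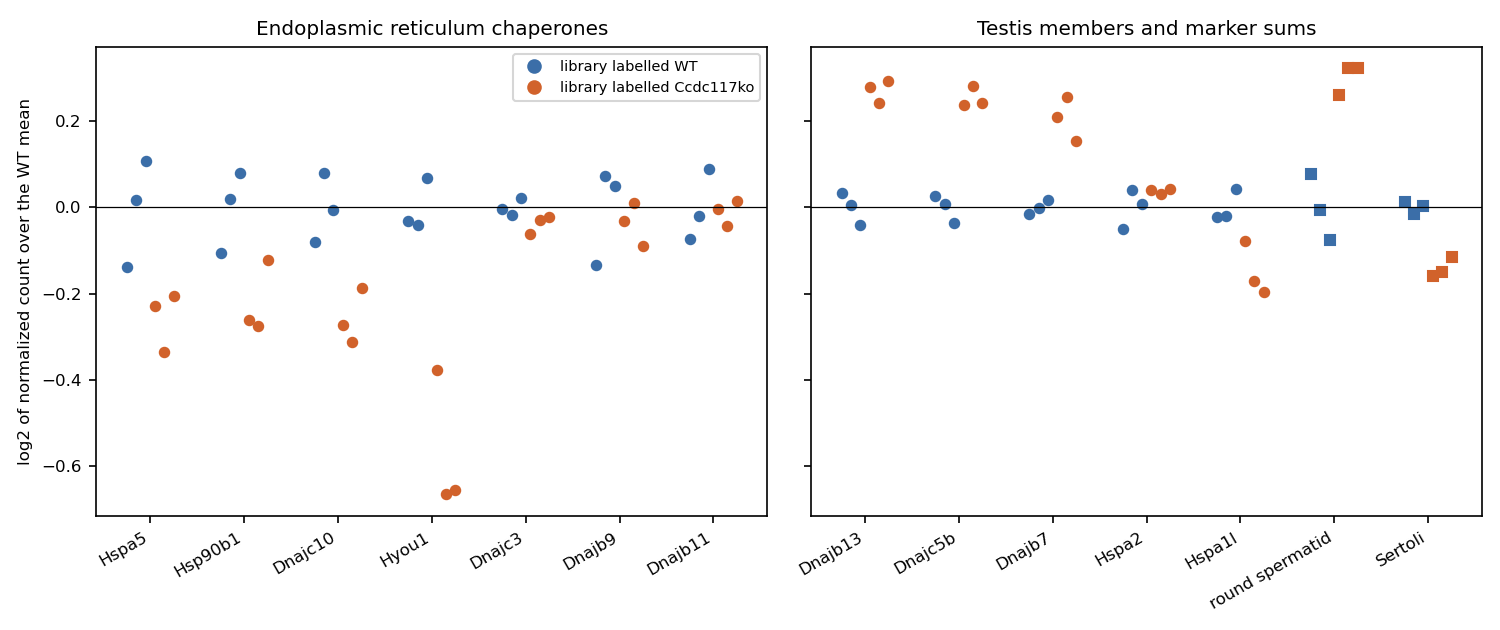
Log2 of the normalized count over the WT mean (y axis) in each library, WT in blue and Ccdc117ko in orange, for chaperones of the endoplasmic reticulum (left) and for testis members beside the summed markers of round spermatids and Sertoli cells (right, squares). Hspa5, Hsp90b1, Dnajc10 and Hyou1 lie lower in the 3 libraries labelled Ccdc117ko, and Dnajb9 and Dnajb11 overlap. Dnajc3 lies slightly lower in those 3 libraries without overlap and was not called. The spermatid sum lies higher and the Sertoli sum lower.

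J proteins of mitochondria went both ways, 1 of 7 higher and 1 lower, beside 8.35% and 8.25% of all genes. Dnajc15 (chr14:77820681-77875125, minus strand) encodes a protein of the inner mitochondrial membrane known as a brake on respiratory complex I. Dnajc15 had 6344, 6590 and 6334 normalized counts in WT and 7574, 7628 and 7444 in Ccdc117ko. The groups were far apart (log2 change 0.23, SE 0.04, limma adjusted p = 0.00282), and the length and GC correction took the change to 0.34 (adjusted p = 0.000671). Dnajc28 had 1042, 1176 and 1294 in WT and 961, 828 and 992 in Ccdc117ko, lower in all 3 with a narrow gap (-0.33, SE 0.09, limma adjusted p = 0.0218). Dnajc28 lost its call without WT replicate 2 (adjusted p = 0.0638), WT replicate 3 (0.0945) or Ccdc117ko replicate 2 (0.103), and with the filter of 0.5 (0.0812). Dnajc4, the most abundant of the group per kilobase, had 1849, 2032 and 1846 in WT and 2223, 2061 and 2090 in Ccdc117ko and was not called (0.16, SE 0.06, limma adjusted p = 0.0824).

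The HSP70 and chaperonin of the mitochondrial matrix were not called. Hspa9, which encodes mortalin, had 8788, 9394 and 9904 normalized counts in WT and 8983, 8741 and 9210 in Ccdc117ko (log2 change -0.06, SE 0.05, limma adjusted p = 0.443). Hspd1, the HSP60 subunit, had 1936, 1701 and 1752 in WT and 1639, 1669 and 1766 in Ccdc117ko (-0.09, SE 0.06, limma adjusted p = 0.378). Hspe1, its HSP10 lid, had 611, 617 and 566 in WT and 621, 582 and 611 in Ccdc117ko (0.02, SE 0.07, limma adjusted p = 0.908). All 3 genes overlapped between the genotypes.

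J proteins of the nucleus, ribosome and translation held 2 higher members of 6, where 8.35% of all genes were called higher. Dnajc24, needed to make diphthamide on elongation factor 2, had 266, 274 and 263 normalized counts in WT and 295, 367 and 389 in Ccdc117ko. It had the largest rise of any called member, 29.7%, and within Ccdc117ko replicate 1 was nearest to WT (log2 change 0.38, SE 0.11, limma adjusted p = 0.0337). Dnajc24 was called in 1 of the 6 fits that leave out a library: without WT replicate 1 (adjusted p = 0.0553), WT replicate 2 (0.0683), WT replicate 3 (0.0947), Ccdc117ko replicate 2 (0.128) or Ccdc117ko replicate 3 (0.131) the call was lost. Dnajc9, a co-chaperone of histones H3 and H4, had 2914, 3033 and 2961 in WT and 3280, 3260 and 3302 in Ccdc117ko, without overlap (0.14, SE 0.04, limma adjusted p = 0.0431). Dnajc9 lost its call with any 1 library left out, at adjusted p-values of 0.065 to 0.117. Neither gene was called after the length and GC correction (0.109 for Dnajc24, 0.187 for Dnajc9) or with the filter of 0.5 (0.0838 and 0.0544). The most abundant gene of the group per kilobase was the ribosome-bound Dnajc2, with 8808, 9212 and 9294 in WT and 9150, 8957 and 9513 in Ccdc117ko, overlapping (0.02, SE 0.04, limma adjusted p = 0.835).

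J proteins of vesicles and endosomes and others of mixed roles all had log2 changes below 0, and 2 of 7 were called lower. Of all genes 8.25% were called lower. None of the 7 was called after the length and GC correction or with the filter of 0.5. Dnajc13, an endosomal J protein also named RME-8, had 1117, 1232 and 1319 normalized counts in WT and 1032, 1011 and 1062 in Ccdc117ko. WT replicate 1 was nearest to the Ccdc117ko libraries (log2 change -0.24, SE 0.07, limma adjusted p = 0.033). Dnajc27, a small GTPase with a J domain, had 5960, 5829 and 6448 in WT and 5530, 5192 and 5614 in Ccdc117ko, a narrow gap (-0.16, SE 0.05, limma adjusted p = 0.0475). Dnajc13 was called only without WT replicate 1 among the 6 fits that leave out a library, at adjusted p-values of 0.0626 to 0.142 in the other 5. Dnajc27 likewise lost its call in those 5 fits, at 0.0508 to 0.199. After the length and GC correction the log2 change of Dnajc13 was -0.10 (adjusted p = 0.342) and that of Dnajc27 -0.05 (0.556), and with the filter of 0.5 the adjusted p-values were 0.0772 and 0.106. Dnajc7, which passes clients between HSP70 and HSP90, had 7870, 8273 and 8578 in WT and 7968, 7876 and 8059 in Ccdc117ko, overlapping (-0.05, SE 0.04, limma adjusted p = 0.493).

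General chaperones of the cytosol were not called in the main fit: none of 8 cytosolic HSP70 genes, none of 8 general class A and B J proteins, and neither cytosolic HSP90 gene. Of all genes 16.6% were called. With the length and GC correction Hsph1 (limma adjusted p = 0.0406), Dnaja4 (0.0294) and Dnajb4 (0.0295) were called higher, beside 8.21% of all genes. Dnajb6 was called lower without WT replicate 1 (0.0346), and Dnajb5 without Ccdc117ko replicate 1 (0.031). Hspa8, the constitutive HSC70, had 10042, 9841 and 9788 normalized counts in WT and 9706, 9509 and 9643 in Ccdc117ko, without overlap and with a mean difference of -2.73% (log2 change -0.04, SE 0.04, limma adjusted p = 0.511). The stress-induced Hspa1a (log2 change 0.09) and Hspa1b (-0.10) pointed opposite ways and were not called. They share 60.3% and 62.3% of their 50-base words with other genes, above all with each other. Hspa4, an HSP110-type exchange factor, had 10370, 10865 and 11502 in WT and 10244, 10101 and 11025 in Ccdc117ko, overlapping (-0.06, SE 0.05, limma adjusted p = 0.433).

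Hsp90aa1, the stress-responsive cytosolic HSP90 and the member with the most counts, had 55057, 58139 and 59581 normalized counts in WT and 54221, 56029 and 58980 in Ccdc117ko. The groups overlapped (log2 change -0.03, SE 0.04, limma adjusted p = 0.675), and 58.5% of its 50-base words occur in other genes. Such shared words made up 51.6% of Hspb1, 51.4% of Hspa8, 44.8% of Hspd1 and 35.8% of Dnajb6. The most abundant general J proteins per kilobase were Dnajb6 and Dnajb1. Dnajb6, an inhibitor of aggregation, had 15635, 16484 and 16813 in WT and 15574, 14798 and 15350 in Ccdc117ko, without overlap (-0.10, SE 0.04, limma adjusted p = 0.122). Dnajb1, the stress-induced HSP40, had 13964, 14534 and 14805 in WT and 14966, 14405 and 14409 in Ccdc117ko, overlapping (0.02, SE 0.04, limma adjusted p = 0.822).

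Among the numbered Hspb genes other than Hspb9, 1 of 6 tested was called, where 16.6% of all genes were called. The 6, grouped by Symbol, were Hspb1, Hspb2, Hspb6, Hspb7, Hspb8 and Hspb11. Hspb6, a small heat shock protein of muscle also named HSP20, had 1256, 1330 and 1272 normalized counts in WT and 1396, 1505 and 1472 in Ccdc117ko, without overlap (log2 change 0.18, SE 0.06, limma adjusted p = 0.0465). Hspb6 lost its call with any 1 library left out, at adjusted p-values of 0.0516 to 0.172, with the filter of 0.5 (0.0715) and with the length and GC correction (0.0691). Exons of Hspb6 overlap Lin37 and Proser3 on the opposite strand and Gm38670 on the same strand. Hspb1, the ubiquitous HSP27, had 982, 974 and 946 in WT and 977, 908 and 988 in Ccdc117ko, overlapping (-0.02, SE 0.06, limma adjusted p = 0.898). The Hspb prefix also took in Hspbp1, an exchange factor of HSP70, with 2309, 2281 and 2222 in WT and 2456, 2483 and 2439 in Ccdc117ko. Its groups did not overlap, and it was not called (0.12, SE 0.05, limma adjusted p = 0.115).

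The heat shock element, to which heat shock factors bind, was searched on both strands of the same promoter windows as 3 alternating units, GAA, TTC and GAA, each set apart from the next by any 2 bases. It was present in 198 windows (0.603%), and in those of 4 members: Hspd1, Hspe1, Dnajb6 and Hsph1. None of the 4 was called, where 16.6% of all tested genes were called. Hspd1 and Hspe1 lie head to head on chromosome 1 and share 1 site, at chr1:55088053-55088082 (plus strand). It holds 4 alternating units, in capitals, which match the motif once on each strand.
Hspe1 and Hspd1: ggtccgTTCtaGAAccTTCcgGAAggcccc
The shorter form of 2 units, GAA and TTC with 2 bases between them, is part of the longer motif. It occurred in 7.86% of all windows and in those of 14 members, among them Hspb3, which was not tested. Of the 14, Hspb6 was called higher and Dnajc27 lower, where 8.35% of all genes were called higher and 8.25% lower. Among the heat shock factors and their binding proteins 2 of 5 tested were called, both higher, where 8.35% of all genes were called higher. None was called without WT replicate 3, Ccdc117ko replicate 2 or Ccdc117ko replicate 3, or with the filter of 0.5 (adjusted p = 0.0545 for Hsf2 and 0.0817 for Hsbp1). Hsf2, a heat shock factor of spermatogenesis, had 1823, 1798 and 1790 normalized counts in WT and 1948, 2179 and 2113 in Ccdc117ko, without overlap (log2 change 0.20, SE 0.06, limma adjusted p = 0.0248). Hsbp1, an inhibitor of heat shock factor trimers, had 12095, 13670 and 13092 in WT and 14811, 14476 and 14233 in Ccdc117ko, also apart (0.17, SE 0.05, limma adjusted p = 0.0291). Hsf2 lost its call without WT replicate 2 (adjusted p = 0.0662), WT replicate 3 (0.0765), Ccdc117ko replicate 2 (0.121) or Ccdc117ko replicate 3 (0.0796). Hsbp1 lost it without any 1 library other than WT replicate 2, at 0.054 to 0.0952, and with the length and GC correction (0.301). Hsf1, the main factor of the heat shock response, was not called (0.09, limma adjusted p = 0.343).

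Transcript length moved with genotype across tested protein-coding genes, and this touched the members. The deviation of a library from the gene mean rose by 0.021 to 0.059 (log2) per doubling of transcript length in the WT libraries. It changed by -0.058 to -0.025 in those labelled Ccdc117ko, over 16652 protein-coding genes. After the correction for length and GC, 9 of the 15 called members were still called. Dnajb7, Dnajc24, Dnajc9 and Hspb6 on the higher side and Dnajc13 and Dnajc27 on the lower side were not. Called in their place, all higher, were Dnaja4 (0.14), Dnajb4 (0.14), Dnajb12 (0.16), Dnajb14 (0.24), Hsph1 (0.18) and Hspa4l (0.13). The corrected split was 10 higher and 5 lower among the 74 members. Of all 22837 genes in that fit, 1875 (8.21%) were higher and 918 (4.02%) lower. Hspa5, Hsp90b1, Dnajc10, Dnajc28 and Hspa1l were lower with and without the correction. When the correction was combined with the replicate number as a block, 6 of the 15 calls were kept, and Dnajc5b (adjusted p = 0.0524), Dnajc10 (0.0514) and Hspa1l (0.0834) were among those lost.

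**Figure D5:**
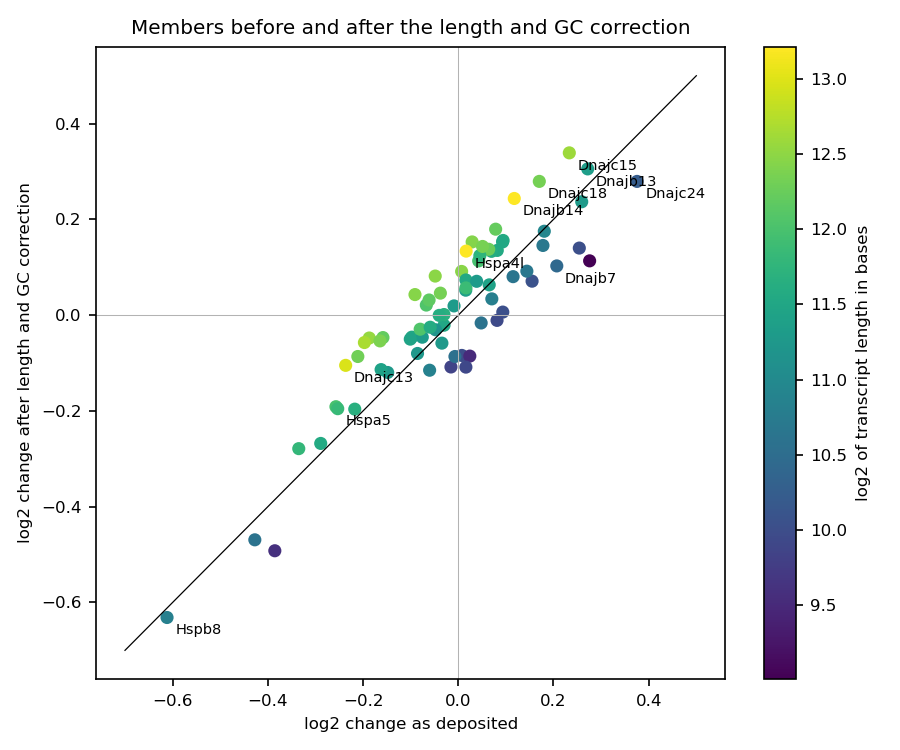
Log2 change of each tested member as deposited (x axis) and after the length and GC correction (y axis), with color giving the log2 of transcript length in bases and the diagonal marking equality. Members with long transcripts, such as Hspa4l and Dnajb14, lie above the line, and those with short ones, such as Dnajb7 and Dnajc24, lie below it.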

How the data were processed

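RNA from 3 WT and 3 Ccdc117ko testes libraries was extracted with TRIzol, treated with DNase and sequenced from TruSeq stranded mRNA libraries on a HiSeq instrument, per the labels' protocols. STAR, DESeq2 and mm10 are named in the submitters' processing notes. Tool versions, and how or on which strand reads were counted, were not given in the sources used here. In 1 table the authors deposited log2 values per gene and library, read here as log2(normalized count + 1) from the values, since the file headers do not state it: 100% of low values were whole reads within rounding. The deposited fold change, p-value and FDR of the authors' own test were used only for a count of members.

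Limma-trend (limma 3.58.1, R 4.3.3) was fitted to the deposited values with a genotype term alone. The fit took the 22878 genes whose mean reached 10 normalized counts. P-values are two-sided and Benjamini-Hochberg adjusted over these genes, with a threshold of 0.05. A log2 change is thus a difference of log2(normalized count + 1), which understates that of low genes. The members, lists, filter and tests were chosen with earlier results of these data known. Values per library are given for the testis members, the called members and the 2 most abundant members of each role per kilobase, and for called related genes. Genes, lengths and GC came from GENCODE M21 (36551 identifiers matched, all 75 members). Per-kilobase values use the longest transcript. The length and GC correction removed natural splines of both from each library's deviations. Promoters came from RefSeq. No 2 libraries of the same genotype were duplicates (chi-square per degree of freedom 4.43 to 7.00), and pairs across genotypes were not compared. The fit was also run on simulated reads with known changes in a small set of genes and no length trend between genotypes. Those settings differ from these libraries, so the simulation does not vouch for the calls here.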

Additional observations from a re-analysis of the deposited data

How the results depend on the processing

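No called member changed direction under any alternative run. All 15 calls were kept with pseudocounts of 0.5 and 5, with TMM scaling, and with limma-voom on the recovered reads, which was chosen after seeing the data. With upper-quartile scaling 13 were kept and all genes split into 2187 higher and 1524 lower, against 1911 and 1887 as deposited; with the length and GC correction that split was 1875 and 918. A filter of 0.5 normalized counts called 2228 genes, with 5 members higher and 1 lower. No filter called 2219 genes, with 4 members higher and 1 lower, so 5 and 6 of the 15 calls were kept without a filter and with the lower one. The cause was not tested. Leaving out each library in turn called 1714 to 4021 genes, 4 to 6 members higher and 1 to 9 lower, the fewest without Ccdc117ko replicate 2. With the filter of 0.5 the same fits called 6 to 1268 genes. The replicate numbers did not pair the libraries (same-number correlations of deviations -0.004 to 0.006). With the number as a replicate block 3579 genes were called and 13 of the 15 members, with Dnajc9 and Hspb6 lost. The replicate block with the length and GC correction called 2370 genes, with 5 members higher and 3 lower. It kept 6 of the 15 calls and added Dnajb14 and Hspa4l. The 9 lost were Dnajb7, Dnajc13, Dnajc24, Dnajc27, Dnajc9, Hspb6, Dnajc10, Dnajc5b and Hspa1l. The authors' deposited table lists 17 of the 75 members with an FDR under 0.05, the 15 called here with Dnajb14 and Dnajc16. Of all 36652 genes in it, 4233 (11.5%) have an FDR under 0.05. The planned edgeR and DESeq2 alternatives were not run, and limma-voom was the only fit to the recovered reads. With 3 libraries a genotype, a gene that was not called may still differ.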

Other observations

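Partners of the chaperones outside the family prefixes also went both ways. Of 43 tested cofactors of HSP70 and HSP90, 5 were called higher and 2 lower, 16.3% where 16.6% of all genes were called. Besides Hyou1 and Sil1, the largest changes were in Hscb, Spag1 and Aarsd1. Hscb encodes the J protein that hands iron-sulphur clusters to recipient proteins and had 267, 273 and 249 normalized counts in WT and 313, 375 and 314 in Ccdc117ko, without overlap. Its log2 change was 0.34 (SE 0.10, limma adjusted p = 0.0363). Hscb lost its call without WT replicate 2 (adjusted p = 0.0635), WT replicate 3 (0.123), Ccdc117ko replicate 2 (0.168) or Ccdc117ko replicate 3 (0.056), and with the length and GC correction (0.148).

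Spag1, an HSP90 cofactor for the assembly of dynein arms, had 2857, 3144 and 3578 in WT and 2741, 2408 and 2601 in Ccdc117ko, lower in all 3 (log2 change -0.30, SE 0.07, limma adjusted p = 0.0171). Spag1 was no longer called when WT replicate 3 (adjusted p = 0.0673) was left out, or Ccdc117ko replicate 2 (0.0846), and with the length and GC correction (0.0586). Aarsd1, an HSP90 co-chaperone, had 652, 685 and 686 in WT and 827, 846 and 785 in Ccdc117ko, without overlap (0.28, SE 0.07, limma adjusted p = 0.013), and lost its call without Ccdc117ko replicate 2 (0.0668). Of 15 genes of the cytosolic chaperonin and of prefoldin, which feeds it, only Cct2 was called. This is 6.67%, where 16.6% of all genes were called. Cct2, a chaperonin subunit, had 12028, 12048 and 11862 in WT and 12884, 13090 and 13881 in Ccdc117ko (0.15, SE 0.04, limma adjusted p = 0.0245). Cct2 lost its call without WT replicate 2 (adjusted p = 0.0566), WT replicate 3 (0.0815), Ccdc117ko replicate 2 (0.0712) or Ccdc117ko replicate 3 (0.095), and with the length and GC correction (0.0513).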
